A study of Mus musculus with 23 samples.

Results

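The genes described here are 9 regulators and early products of limb muscle, taken by symbol from a table that lists 34682 genes, and all 9 symbols were found in it. They are Lbx1, Met and Pax7 of the muscle precursors, the bHLH factors Myf5, Myf6, Myod1 and Myog, and Mef2c and Chrng of early differentiation. The table compares RNA from the distal forelimb of E11.5 mouse embryos that carry the engineered inversion Inv1 together with a deletion named DelCTCF (2 libraries, called Inv1DelCTCF) with forelimbs that carry Inv1 alone (3 libraries). Both groups share the inversion, which moves an enhancer cluster away from Epha4 into a gene-dense region of chromosome 1. The labels give the genotype of both only as mutant, name G4 ESC as the cell type of every library, and do not say how many embryos or clones a library stands for. The 4 tables of Inv1, Inv2, Inv3 and Inv4 against wild type list only 78, 74, 79 and 72 genes. None of the 9 genes is among those, so no level in wild type limbs is given for the 9.

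Limb muscle does not arise in the limb itself. Cells that express Pax3 leave the somites and migrate into the limb bud, guided by the Met receptor and its ligand HGF and dependent on the homeobox factor Lbx1. There they switch on Myf5 and Myod1, which commit them to the muscle fate, and then Myog and Mef2c, which drive differentiation and fusion into fibres that make acetylcholine receptors and contractile proteins. In bulk RNA of a whole limb piece, a change in the number of these cells and a change of RNA per cell cannot be told apart.

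The files hold values per comparison and none per library. Each gene has a mean normalised count over the 5 libraries, a log2 change with its standard error (SE) and a Wald p with its adjusted p. The means sum to 3.02e+07, and the depth of single libraries is unknown. The level in each group was rebuilt from the mean and the log2 change, and has no error of its own beyond that of the change. The header names no numerator. As the Inv1 levels rebuilt from the wild type tables fitted best when positive values mean higher in Inv1 (median absolute residual 0.0124 on the log2 scale, against 0.107 or more otherwise), the signs are reversed here, and a positive change stands for more RNA in Inv1DelCTCF. In that same best fit, positive values of the wild type comparisons mean higher in the mutant. Their signs were therefore kept, and this direction too is inferred. Genes of the forelimb were present, with a mean normalised count of 19242 for the distal gene Hoxd13 and of 7273 for the forelimb factor Tbx5. Of the 4 hindlimb markers, Tbx4 had a mean normalised count of 642, Hoxc10 of 72.4, Pitx1 of 19.2 and Hoxc11 of 17.4.

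None of the 9 genes passed the test in Inv1DelCTCF against Inv1. Within the authors' deposited table, 11.7% of the 11218 genes with an adjusted p were called by DESeq2's Wald test at an adjusted p under 0.05, with 3.81% higher and 7.89% lower. Of the 9 genes, 6 have an adjusted p, and 0 of these 6 were called. The other 3 (Lbx1, Pax7 and Myf6) have means below 113.0, the lowest mean for which the authors' table gives an adjusted p. At an unadjusted p under 0.05 the count was 0 of 9, where 14.5% of all rows with a p reach it. All 9 intervals of 95% around the log2 change held 0. What separated the genes was the error around the change more than the call. The precursor genes Met and Lbx1 and the commitment gene Myf5 had errors close to the median of genes with similar means, Pax7 had an error 1.36 times that median, above that of 98.0% of such genes, and Myod1 one 1.59 times. Myog, Mef2c and Chrng had errors 2.97 to 4.28 times the median of genes with similar means.

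**Figure D1:**
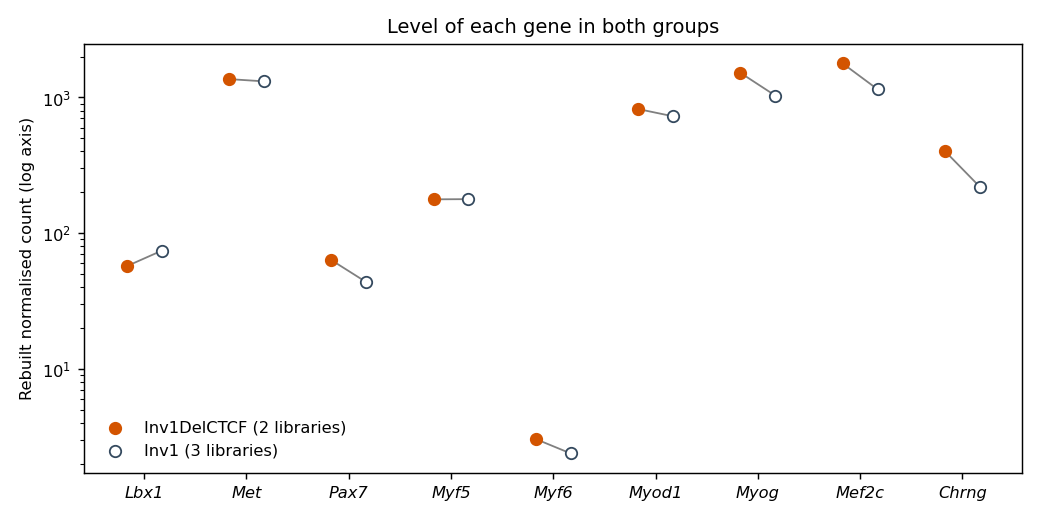
Rebuilt normalised count of each of the 9 genes (vertical log axis) in Inv1DelCTCF (filled, 2 libraries) and Inv1 (open, 3 libraries); the points have no error bars since the files hold no values per library. Met and Myf5 lie nearly level between the groups, Chrng stands at 402 in Inv1DelCTCF against 219.6 in Inv1, and none of the differences passed the test.

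Among the precursor genes, Met encodes the receptor tyrosine kinase through which HGF releases and guides migrating muscle cells. Its rebuilt level was 1366 in Inv1DelCTCF and 1315 in Inv1. Per the authors' deposited table, its log2 change was 0.06 (SE of 0.091 and adjusted p = 0.744). The interval of -0.12 to 0.23 corresponds to 0.918 to 1.18 times the Inv1 level, the narrowest range of the 9 genes. The SE of Met was 1.02 times the median SE of the 500 genes nearest to it in mean count. Met is also expressed outside the muscle lineage, so its level does not count muscle precursors alone.

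Lbx1, a homeobox gene needed for the lateral migration of the precursors, had rebuilt levels of 57.1 in Inv1DelCTCF and 74.2 in Inv1. Its log2 change per the authors' deposited table was -0.38 (SE of 0.303), and its unadjusted p was 0.214. Pax7, a paired-box gene of later muscle progenitors, had rebuilt levels of 63.3 in Inv1DelCTCF and 43.6 in Inv1. Per the authors' deposited table, its log2 change was 0.54 (SE of 0.479), with an unadjusted p of 0.262. The point estimates of Lbx1 and Pax7 thus had opposite signs, and each interval held 0, from -0.97 to 0.22 for Lbx1 and from -0.40 to 1.48 for Pax7. At these means only large changes could be seen: a change would have to reach 1.79-fold for Lbx1 and 2.50-fold for Pax7 to have the Wald score of 2.76 that the weakest called gene had.

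Pax3, which marks the same migrating cells upstream of Lbx1 and Met, had a log2 change of -0.08 (SE of 0.225 and adjusted p = 0.863) per the authors' deposited table of Inv1DelCTCF. Against wild type, where the 4 comparisons share 5 wild type libraries, its log2 change per the authors' deposited tables was -0.43 (adjusted p = 0.663) in Inv1, -0.89 (adjusted p = 0.00102) in Inv2, -1.42 (adjusted p = 4.14e-10) in Inv3 and -0.84 (adjusted p = 0.000871) in Inv4. A change in the number of precursors and a change of Pax3 RNA per cell cannot be told apart in these values. An effect of the inversions on the Pax3 gene itself was not tested.

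The 4 bHLH factors bind DNA as pairs with E proteins and turn on muscle genes in a partly ordered sequence. Myf5, the earliest of them in the mouse embryo, had rebuilt levels of 177.5 in Inv1DelCTCF and 178.1 in Inv1. Its log2 change per the authors' deposited table was -0.0050 (SE of 0.205 and adjusted p = 0.992), and the interval of -0.41 to 0.40 leaves room for changes between 0.754-fold and 1.32-fold. Myod1, the second commitment factor, had rebuilt levels of 822 in Inv1DelCTCF and 727 in Inv1. Per the authors' deposited table, its log2 change was 0.18 (SE of 0.170 and adjusted p = 0.534), with an interval of -0.16 to 0.51. Its SE was 1.59 times the median of genes with similar means, above that of 97.8% of them, against 1.03 times for Myf5, whose SE itself was the larger of the 2.

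Myog, the factor required for the differentiation of committed cells, had rebuilt levels of 1518 in Inv1DelCTCF and 1033 in Inv1. The log2 change per the authors' deposited table was 0.56 (SE of 0.391 and adjusted p = 0.374), with an interval from 0.864-fold to 2.50-fold. That SE was 4.28 times the median of 0.091 among genes with similar means, and Myog ranked 27 of 11218 tested genes by this ratio. A change of Myog would have had to reach 2.11-fold to be called, against 1.19-fold for Met at nearly the same mean count. Myf6, which neighbours Myf5 on chromosome 10 and acts late in myogenesis, was close to the lower end of detection, with rebuilt levels of 3.04 in Inv1DelCTCF and 2.38 in Inv1. With an SE of 1.46 per the authors' deposited table, nothing can be read from its log2 change of 0.35.

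Mef2c and Chrng stand for the step after Myog. Mef2c encodes a MADS-box factor that acts together with the bHLH factors, and Chrng encodes the gamma subunit of the fetal acetylcholine receptor of muscle. Mef2c had rebuilt levels of 1780 in Inv1DelCTCF and 1149 in Inv1. Its log2 change per the authors' deposited table was 0.63 (SE of 0.336 and adjusted p = 0.214), and its interval ran from -0.03 to 1.29. Chrng had rebuilt levels of 402 in Inv1DelCTCF and 219.6 in Inv1, the largest fold among the 9 genes. Per the authors' deposited table, its log2 change was 0.87 (SE of 0.472 and adjusted p = 0.222), with an interval from 0.964-fold to 3.47-fold. Both intervals reach just below 0, and both changes fell short of the size that could have been called at these errors, 1.90-fold for Mef2c and 2.46-fold for Chrng.

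**Figure D2:**
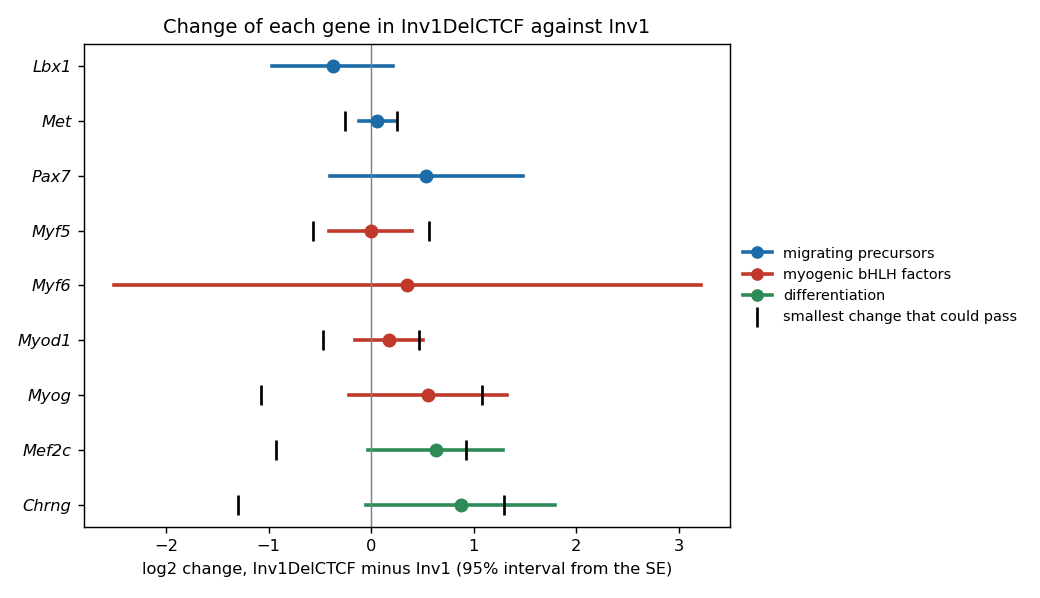
Log2 change of each of the 9 genes in Inv1DelCTCF minus Inv1 (points) with the 95% interval from the SE (bars), coloured by role; black ticks mark the smallest change in either direction that could have been called, for the 6 genes with an adjusted p. All 9 bars cross 0, and no point lies beyond its tick; the bar of Met is the narrowest and that of Myf6 the widest.

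Mef2c is also expressed in endothelium and neural crest derivatives, so the other cell types of the limb were set beside it. Of 8 endothelial markers, 3 had a positive and 5 a negative log2 change, and 1 of the 7 tested, Cdh5, was called lower at -0.24 (SE of 0.079 and adjusted p = 0.0275) per the authors' deposited table. That call of Cdh5 ended (adjusted p = 0.211) when a trend in transcript GC content and length was subtracted from the changes of all genes. The summed rebuilt level of the endothelial list was 8282 in Inv1DelCTCF and 9099 in Inv1, and the part of endothelium in the level of Mef2c was not tested. All 6 markers of neural crest and nerve had a positive log2 change, and 0 of the 3 tested were called, with 1 of the 6 at an unadjusted p under 0.05. Over all tested genes 11.7% were called, and 14.5% of all rows with a p had an unadjusted p under 0.05. The summed rebuilt level of the nerve list was 2657 in Inv1DelCTCF and 2306 in Inv1. The part of neural crest and nerve cells in the level of Mef2c was not tested. All 7 ectoderm markers had a negative log2 change and 3 of them fell, or 1 after subtraction of the trend. Before that subtraction, 7.89% of all tested genes were called lower. The summed rebuilt level of the ectoderm list was 9464 in Inv1DelCTCF and 11412 in Inv1. Fgf8, the growth factor gene of the apical ridge, was at -1.20 (SE of 0.609 and adjusted p = 0.188) per the authors' deposited table, with an SE 3.46 times the median of genes with similar means. Of the erythroid markers, Hba-a1 and Hba-a2 were listed at 0, and 2 of the 4 tested fell. No marker of the endothelial, nerve or ectoderm lists was at 0.

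Set per kilobase of the longest annotated transcript, the mean normalised count over the 5 libraries was highest for Myog, at 821, followed by Myod1 at 411, Mef2c at 223 and Met at 196. Chrng stood at 105, Myf5 at 85.4, Lbx1 at 27.1, Pax7 at 8.80 and Myf6 at 2.09 counts per kilobase. The bHLH factors thus stood at both ends of the order, and the precursor gene Met lay above Chrng and Myf5. The top of the order depends on the transcript taken: with the median transcript length, Mef2c moved to 1183, Met to 377 and Chrng to 376 counts per kilobase, and Mef2c then lay above Myog. The means are pooled over libraries, so neighbours in this order were not tested against each other.

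The starts of Myog and Chrng are shown because both are textbook targets of the bHLH factors and had the same sign and a wide error here. RefSeq windows of 250 bases before to 50 bases after the start (build GRCm38.p6) were found for 6 of the 9 genes, 8 windows in all. The 250 bases before the start of Myog are chr1:134289754-134290003 and those of Chrng are chr1:87205561-87205810, both on the plus strand. Capitals mark CANNTG, the E-box letters that bHLH pairs recognise, and CTANNNNTA, the outer letters of a MEF2 site, each searched on both strands, with no overlap between them in these 2 windows.

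Myog: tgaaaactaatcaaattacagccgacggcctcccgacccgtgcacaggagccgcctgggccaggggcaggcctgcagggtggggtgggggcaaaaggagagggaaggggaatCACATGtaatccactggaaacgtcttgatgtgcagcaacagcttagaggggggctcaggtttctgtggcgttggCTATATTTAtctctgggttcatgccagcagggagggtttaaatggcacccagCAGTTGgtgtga
Chrng: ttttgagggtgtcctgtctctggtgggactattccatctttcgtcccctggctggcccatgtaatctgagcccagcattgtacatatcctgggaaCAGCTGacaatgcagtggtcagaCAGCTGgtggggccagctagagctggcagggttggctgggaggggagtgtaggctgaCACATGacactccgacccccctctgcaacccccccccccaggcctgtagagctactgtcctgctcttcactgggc

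The Chrng window holds CAGCTG, an E-box form that bHLH factors of muscle bind well, with first bases at -155 and -132 from the start, and CACATG at -75. The Myog window holds CACATG at -138, CAGTTG at -12 and CTATATTTA at -64. CANNTG stood in 72.3% of all 32851 promoter windows of that length, CAGCTG in 16.3% and CTANNNNTA in 21.0%. The full MEF2 consensus, as searched, stood in 3.19% of them and in none of the 8 windows found for 6 of the 9 genes. In Myog, CTATATTTA is followed by T, where the searched consensus ends in A or G. The windows of Pax7 and Myf5 held no CANNTG. These are letters in a sequence, and binding was not measured.

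The error pattern was compared with other muscle genes from lists chosen with earlier results of these data known. In the early differentiation list, 22 of 24 symbols were in the table, 18 had an adjusted p, and 16 of these 18 had a positive log2 change. Their median log2 change was 0.75, against -0.01 over all tested genes, and 0 of 18 were called. At an unadjusted p under 0.05 the count was 4, where 26.1% of all tested genes reach it. The 4 with the smallest adjusted p per the authors' deposited table were Tmem8c, which encodes the fusion protein myomaker, at 0.72 (SE of 0.295 and adjusted p = 0.0908), the cell cycle regulator Rb1 at 0.24 (adjusted p = 0.133), the fast myosin light chain gene Mylpf at 1.004 (SE of 0.472 and adjusted p = 0.150) and the myostatin gene Mstn at 0.72 (adjusted p = 0.164). Myh8 was listed at 0. These genes are measured in the same 5 libraries, so their shared sign is not independent evidence of a change.

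Wide errors relative to genes with similar means were also seen for most of these genes. Of the 18 tested, 13 had an SE more than 3 times the median of genes with similar means, against 1.13% of all tested genes. The ratio of 7 of the 18 was at or above that of Myog, and the other 5 genes outside the 13 had ratios of 1.02 to 1.58. Among the 9 myogenic genes, 3 of the 6 tested had an SE more than 2 times that median, against 168 of all 11218 tested genes. Myh3, the embryonic myosin heavy chain gene, named after its values were seen, had the highest ratio of all 11218 tested genes at 7.98. Its rebuilt level was 3684 in Inv1DelCTCF and 1711 in Inv1, and its log2 change per the authors' deposited table was 1.11 (SE of 0.612 and adjusted p = 0.235). The cardiac actin gene Actc1, which embryonic skeletal muscle also uses, was second at 7.87.

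**Figure D3:**
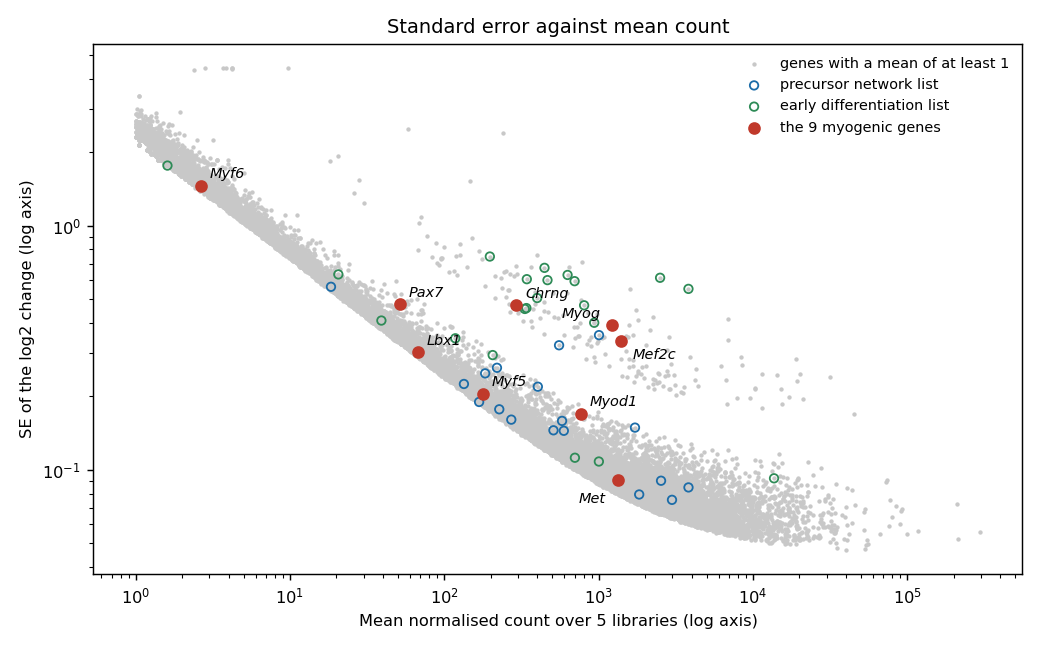
SE of the log2 change (vertical log axis) against the mean normalised count over 5 libraries (horizontal log axis), 1 point per gene with a mean of at least 1. Met, Myf5 and Lbx1 lie in the main band, Myod1 and Pax7 at its upper edge, and Myog, Mef2c and Chrng lie above it with 13 genes of the early differentiation list.

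The SE can be turned into an approximate coefficient of variation between libraries of a group once the counting error is taken off, with all libraries taken as equally deep. It came to 6.36% for Met, 12.4% for Myod1, 13.7% for Myf5, 25.4% for Mef2c, 29.6% for Myog and 35.3% for Chrng. The median over all tested genes was 6.74%. Counting error made up 15.5% of the squared SE of Met but only 0.886% of that of Myog, 1.05% of that of Mef2c and 2.59% of that of Chrng. Most of the width of those 3 intervals thus comes from spread between libraries. The share of counting error was larger in the other genes, up to 30.0% for Lbx1, and so was the smaller part in all 9. DESeq2 by default pulls the spread of a gene toward that of genes with similar means and leaves a gene far above them at its own value. The files do not say which group or library the spread lies in.

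Genes that act beside Pax3 and Lbx1 in the precursors were not called either. Of 19 genes of that list, 17 were tested and 0 were called in either direction, with 11 positive and 6 negative log2 changes and a median of 0.17. At an unadjusted p under 0.05 there were 5, or 29.4% of the 17, near the 26.1% of all tested genes. The smallest adjusted p values per the authors' deposited table belonged to the homeobox gene Meox2 at 0.22 (adjusted p = 0.0748), the dermomyotome factor gene Dmrt2 at 0.56 (adjusted p = 0.121), the chemokine gene Cxcl12 at 0.17 (adjusted p = 0.135) and the homeobox cofactor gene Eya4 at 0.73 (SE of 0.356 and adjusted p = 0.170). The SE of Eya4 was 3.65 times the median of genes with similar means, the widest of this list. The median ratio of the list was 1.21, against 3.95 in the early differentiation list and 2.28 over the 6 tested myogenic genes.

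**Figure D4:**
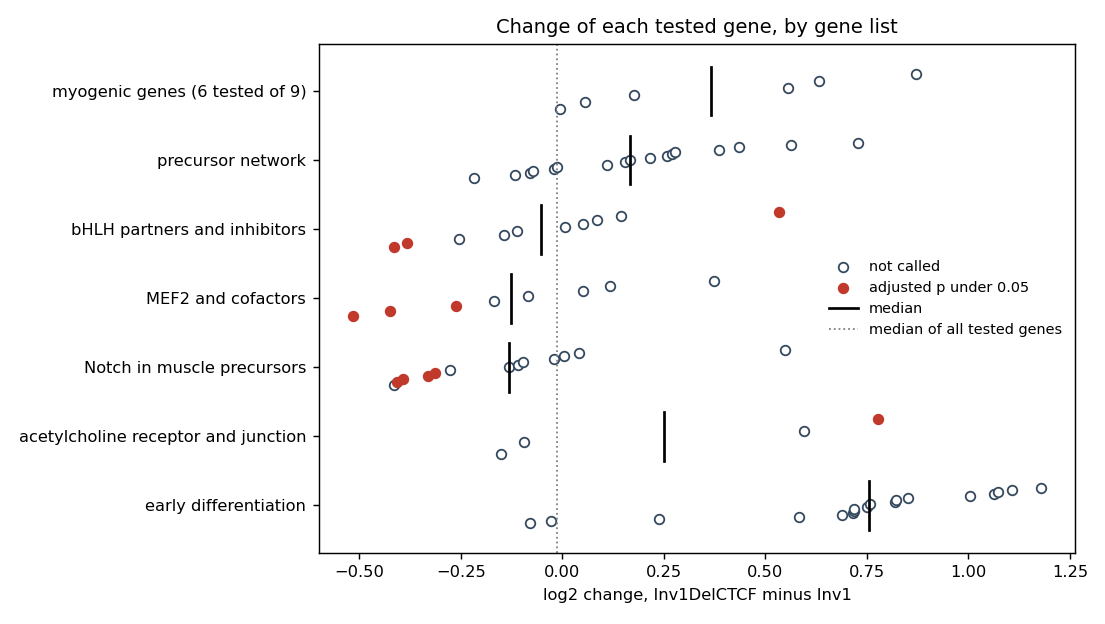
Log2 change in Inv1DelCTCF minus Inv1 of each gene with an adjusted p (points), by gene list, with the median of each list (black bar) and of all tested genes (dotted line); filled points were called. The myogenic genes, the precursor network and the early differentiation list hold no called gene, and the early differentiation list has its median at 0.75.

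The partners and inhibitors of the bHLH factors, which limb mesenchyme expresses widely, did hold called genes. Of the 10, 1 rose and 2 fell in Inv1DelCTCF, where 3.81% of all tested genes rose and 7.89% fell. Tcf3, which encodes the E proteins E12 and E47 that pair with the muscle factors, fell to a rebuilt level of 11025 in Inv1DelCTCF, against 14698 in Inv1. Its log2 change per the authors' deposited table was -0.41 (SE of 0.099 and adjusted p = 0.00138). Id1, an inhibitor that holds E proteins away from DNA, fell by 0.38 on the log2 scale (SE of 0.111 and adjusted p = 0.0104), and its relative Id4 rose by 0.53 (SE of 0.190 and adjusted p = 0.0448) per the authors' deposited table. All 3 calls ended when the trend in GC content and length was subtracted, with adjusted p values of 0.278 for Tcf3, 0.131 for Id1 and 0.177 for Id4. Mdfi, an inhibitor of the muscle bHLH factors, was at -0.25 (adjusted p = 0.132) per the authors' deposited table, and at 0.0059 after the trend was subtracted.

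Of 8 tested genes of the MEF2 family and cofactor list, 3 fell and 0 rose, where 7.89% of all tested genes fell. Hdac4, a histone deacetylase that represses MEF2 factors, fell to a rebuilt level of 680.4 in Inv1DelCTCF, against 972 in Inv1. Its log2 change was -0.52 (SE of 0.105 and adjusted p = 0.000117) per the authors' deposited table and -0.42 (adjusted p = 0.00518) after subtraction of the trend. Srf, the serum response factor gene, fell by 0.42 (SE of 0.079 and adjusted p = 1.67e-05) and Hdac7 fell by 0.26 (SE of 0.091 and adjusted p = 0.0403) per the authors' deposited table, and neither was called after the trend was subtracted (adjusted p = 0.331 and 0.826). Vgll2, a cofactor gene of developing muscle, was at 0.37 (SE of 0.244 and adjusted p = 0.333) per the authors' deposited table.

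In the Notch list, whose pathway holds muscle precursors undifferentiated, 4 of 13 tested genes fell and 0 rose. Over all tested genes, 7.89% were called lower and 3.81% higher. Of the 13 Notch genes, 10 had a negative and 3 a positive log2 change. The ligand gene Jag1 fell by 0.41 (SE of 0.123 and adjusted p = 0.0160) and the target gene Hey1 by 0.39 (SE of 0.109 and adjusted p = 0.00669) per the authors' deposited table. The receptor genes Notch1 and Notch3 fell by 0.33 (adjusted p = 0.0397) and by 0.31 (adjusted p = 0.0155) per the authors' deposited table. After subtraction of the trend Jag1 alone of these 4 was called (adjusted p = 0.0472). These genes are expressed in vessels and mesenchyme of the limb as well, and the cells behind the change cannot be told apart here.

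Chrng is 1 of the subunits of the muscle acetylcholine receptor. Chrnb1, the beta subunit gene, rose to a rebuilt level of 389 in Inv1DelCTCF, against 227 in Inv1. It was the 1 called gene among the 4 tested of its list, where 3.81% of all tested genes rose and 7.89% fell. Per the authors' deposited table, its log2 change was 0.78 (SE of 0.239 and adjusted p = 0.0179), and after subtraction of the trend it was 0.81 (adjusted p = 0.0285). The alpha subunit gene Chrna1 had a log2 change of 0.59 (SE of 0.443 and adjusted p = 0.404) per the authors' deposited table. The delta subunit gene Chrnd, which neighbours Chrng on chromosome 1, was at 0.27 (SE of 0.378) with no adjusted p per the authors' deposited table. Chrng at 0.87 and Chrnb1 at 0.78 had similar changes, and the SE of Chrng was 2.97 times the median of genes with similar means, against 1.51 times for Chrnb1. Of the endplate genes with an adjusted p, Lrp4 at -0.15 (adjusted p = 0.232) and Agrn at -0.10 (adjusted p = 0.454) did not pass per the authors' deposited table. The sign of Agrn turned (0.063) after subtraction of the trend. The endplate genes Rapsn at 0.71 (SE of 0.333), Musk at 0.42 (SE of 0.479) and Dok7 at 0.35 (SE of 0.365) have no adjusted p. Of all 9 genes of this list, 7 had a positive and 2 a negative log2 change.

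Genes of the proximal and distal limb were set beside the muscle genes as a check of the tissue taken. Of 8 genes of the proximal limb, 6 were tested and 1 was called, where 3.81% of all tested genes were called higher and 7.89% lower. The called gene, Shox2, was higher by 0.27 (SE of 0.097 and adjusted p = 0.0487) per the authors' deposited table. It was not called after subtraction of the trend (adjusted p = 0.0699). Of the 6 tested proximal genes, 2 had a positive and 4 a negative log2 change. The proximal genes had a summed rebuilt level of 13889.6 in Inv1DelCTCF and 13348 in Inv1. Shox2 alone made up 5785 and 4806 of these sums, and 4 of the 8 genes had a negative log2 change. Of the 7 tested genes of the distal list, 2 fell, where 7.89% of all tested genes did. Hoxd12 and Hoxa13 fell by 0.25 (adjusted p = 0.0133) and by 0.30 (adjusted p = 0.0330) per the authors' deposited table. Neither was called after subtraction of the trend (adjusted p = 0.207 and 0.198). Hoxd11 was at -0.27 (adjusted p = 0.0522) per the authors' deposited table and was called after subtraction of the trend, at -0.36 (adjusted p = 0.0152). Msx1, a homeobox gene of the distal mesenchyme, had rebuilt levels of 322 in Inv1DelCTCF and 639.9 in Inv1. The log2 change of Msx1 per the authors' deposited table was -0.99 (SE of 0.421 and adjusted p = 0.103), the largest of the list in size among the tested, with an SE 3.36 times the median of genes with similar means. Among the 7 tested genes of the distal list, 3 had a positive and 4 a negative log2 change. The positive ones were Hoxd13 at 0.05, Prrx1 at 0.04 and Tbx5 at 0.06 per the authors' deposited table. Of these, Prrx1 and Tbx5 are not confined to the distal limb. The distal list had a summed rebuilt level of 66469.9 in Inv1DelCTCF and 67757 in Inv1. Prrx1 made up 26274 and 25638 of these sums and Tbx5 7449 and 7155, so they do not describe distal genes alone. The muscle connective tissue list held 0 called genes of 5, with 1 at an unadjusted p under 0.05. Over all tested genes, 11.7% were called and 26.1% had an unadjusted p under 0.05. No gene of these lists was at 0, and their part in the levels of the muscle genes was not tested.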

How the data were processed

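RNA from mouse distal forelimbs was measured. The files are the authors' own comparisons. Per the submitters' processing notes, STAR, DESeq2 and the build mm9 were used; versions, the annotation and the counting step are not given in the sources used here. The deposited columns are, as the headers name them, a mean normalised count (a signal pooled over the libraries of a fit), a log2 fold change with its SE, a Wald score and a p-value with its adjusted p. Throughout, the Wald score is the quotient of log2 change and SE. Labels do not say that libraries are separate litters, so a p-value covers only the spread seen among these libraries.

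The 9 genes and all lists were chosen with earlier results of these data known. Calls use the deposited adjusted p under 0.05, over the 11218 genes that have one. Group levels were rebuilt from the mean and the log2 change with 2 Inv1DelCTCF and 3 Inv1 libraries. Errors were set against the median SE of the 500 genes nearest in mean. Named genes are the 9, every called gene of 3 lists and, from each list, at most 4 genes by smallest adjusted p, of which those that bear on muscle are described. Myh3, Actc1, Hoxd13, Tbx5, Prrx1, Pitx1, Hoxc10, Hoxc11, Chrnd, Rapsn, Musk, Dok7 and Myh8 were added after their values were seen. The longest GENCODE transcript of a gene (GRCm38) gave its GC content and length, for 94.0% of tested and 94.4% of called genes, and a trend up to the cube in both was subtracted as an alternative. Adjustment, trend and rebuilt levels were tested on simulated data. The tools were numpy 2.4.6, SciPy 1.17.1, pandas 2.3.3 and matplotlib 3.10.9 under Python 3.11.15.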

Additional observations from a re-analysis of the deposited data

How the results depend on the processing

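None of the 9 genes was called, and none of those with a value changed sign, at adjusted p thresholds of 0.01 and 0.1, with adjustment over all 21940 rows with a p or over 15177 rows with a mean of at least 10, with a minimum absolute log2 change of 0.5, or, for the 6 tested, after subtraction of the GC and length trend. The smallest adjusted p of the 9 was 0.214 (Mef2c) as deposited, 0.382 over all rows, 0.267 over rows with a mean of at least 10 (both Mef2c) and 0.263 (Myod1) after the trend. The number of called genes over the whole table was 1312, of which 32.5% were higher in Inv1DelCTCF. It was 576 at an adjusted p under 0.01, 174 with the minimum change, and 383 after the trend was subtracted, of which 51.2% were higher; the cause was not tested. After the trend the sign turned for 23 of 109 tested list genes with GC content and length, none of them called then. Of the genes chosen by the naming rule these were Agrn (0.063), Hoxa11 (0.0057), Hoxd9 (0.12), Mdfi (0.0059) and Scx (0.023). The sign of the table was the same with genes of a mean of at least 100 (residual 0.0161) or 20 (residual 0.0176). No paired analysis was possible because the files hold no value per library, and for the same reason leaving out single libraries was not run. Without values per library, the 2 Inv1DelCTCF libraries and the 3 Inv1 libraries cannot be inspected for one that stands apart.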

Other observations

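Genes outside the muscle lists had wide errors as well in this comparison. Of the 100 tested genes with the highest ratio of SE to that of genes with similar means, 11 belong to the early differentiation list and 2 are Myog and Mef2c. Of the 100, 74 had a positive log2 change and 1 was called. The following genes were named after their values were seen. Uty, a Y-linked gene, ranked 3 of all 11218 tested genes with a ratio of 6.99 and a log2 change of 0.98 (SE of 1.53 and adjusted p = 0.725) per the authors' deposited table. Of other sex-linked genes, Xist had a mean normalised count of 14.7, Eif2s3y of 3.68 and Kdm5d of 2.06, and Ddx3y was listed at 0. The labels do not give the sex of the embryos, and its part in the wide errors was not tested. The solute carrier gene Slc15a2 ranked 4 at -0.98 (SE of 0.709 and adjusted p = 0.386) per the authors' deposited table. The cartilage matrix gene Matn4 had a log2 change of 1.12 (SE of 0.498 and adjusted p = 0.122) and the tenascin gene Tnc one of 0.81 (SE of 0.553 and adjusted p = 0.355) per the authors' deposited table. Actn2, which encodes a sarcomeric alpha-actinin and is in none of the lists, was at 1.04 (SE of 0.676 and adjusted p = 0.327) per the authors' deposited table. Slc16a3, a lactate transporter gene, had the opposite sign at -0.68 (SE of 0.451 and adjusted p = 0.341) per the authors' deposited table.

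The muscle intermediate filament gene Des is the 1 gene of the early differentiation list that the wild type tables also hold. Its log2 change per the authors' deposited tables was 0.23 (adjusted p = 0.959) in Inv1, 0.50 (adjusted p = 0.359) in Inv2, 0.81 (adjusted p = 0.0129) in Inv3 and 0.73 (adjusted p = 0.0339) in Inv4, against the same 5 wild type libraries. In Inv1DelCTCF against Inv1 it was 0.58 (SE of 0.460 and adjusted p = 0.435) per the authors' deposited table. Des lies on chromosome 1, as Epha4 does.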
